A study of Arabidopsis thaliana with 12 samples.

Results

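Cysteine-rich receptor-like kinases (CRKs) are a plant family of membrane kinases, described here from a list of 42 Arabidopsis thaliana loci. Members were the probe sets annotated to a listed locus, by locus code or symbol, a rule that uses no measured value. The gene table of the arrays paired 2 of the 42 loci with a probe set, AT1G70740 and AT4G28670. They are 2 of the 13355 genes that it gives as the only gene of a probe set. The other 40 loci, CRK2 to CRK34 and CRK36 to CRK42 with CRK9 and CRK17 under the symbols EP1 and EMB1290, were paired with none there and were not analysed here. A further 8730 probe sets had no gene there, so the results below are about single loci and not about the family.

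Whole seedlings 14 days old were measured on 12 expression arrays in 4 groups of 3, which the labels call biological replicates. The groups were an erf5/6 double mutant treated for 30 min with 1 µM chitooctaose, the same mutant treated with water, wild type treated with chitooctaose, and wild type treated with water. All seedlings were grown under constant light. Chitooctaose is a soluble fragment of chitin, the fungal cell wall polymer, and ERF5 and ERF6 are ethylene response transcription factors of the AP2/ERF family. The labels name neither the mutant alleles nor the wild-type accession.

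A typical CRK has an outer region with conserved cysteines (the DUF26 domain), a segment that crosses the plasma membrane, and a serine/threonine kinase inside the cell. Many CRK genes are known to respond to pathogens, salicylic acid and reactive oxygen species. In Arabidopsis, CRK2 is known to phosphorylate the NADPH oxidase RBOHD, which makes the oxidative burst of immunity, and CRK28 to associate with the coreceptor BAK1. Most of the family sits on chromosome 4, with 37 of the 42 listed loci. Of these, 20 stand in a tandem run between AT4G23130 and AT4G23320 that holds 1 other protein-coding gene.

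Both loci with a probe set lie outside that run, AT1G70740 on chromosome 1 and AT4G28670 on chromosome 4. AT1G70740 is separated from CRK3 by 20 protein-coding genes, whereas CRK2 and CRK3 are direct neighbours. In the RefSeq gene table, 40 of the 42 loci carry a CRK name as symbol or synonym. The 2 that do not are AT1G70740 and AT4G28670, which carry only their locus codes. Their place in the family therefore rests on the list of loci, and whether their proteins hold the outer cysteine domain was not checked here.

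Values are probe set intensities in array units, quantile normalized between arrays, with those below 16, the floor, set to 16. The deposited columns were close in scale, with medians between 77.0 and 83.2. The tests covered the 18680 probe sets that exceeded the floor on any array. Chitooctaose and water arrays were split by the first principal component (64.9% of the variance). On the second (7.42%), array 2 of chitooctaose-treated wild type (-26.6) and array 1 of water-treated wild type (-19.5) stood apart from the other 10, which lay between -5.65 and 11.4. Transcripts of shoot and root were both present on every array: the light-harvesting gene LHCB4.1 had deposited intensities of 5026 to 5812, RCA (Rubisco activase) 5667 to 6708, the root beta-glucosidase gene PYK10 3555 to 4414 and the root hair expansin gene EXPA7 74.8 to 142. None of these 4 genes passed the test in either response. The gene table paired no probe set with ERF5 or ERF6, so the genotype labels were not checked against the targeted transcripts.

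AT1G70740 rose almost 4-fold within 30 min of chitooctaose, in both genotypes, by 1.95 on the log2 scale in erf5/6 and 1.91 in wild type. In chitooctaose-treated erf5/6 seedlings its normalized intensity was 176, 160 and 159, against 39.8, 42.8 and 45.8 in water-treated erf5/6 seedlings. In chitooctaose-treated wild type it was 156, 138 and 147, against 35.2, 39.4 and 43.7 in water-treated wild type. Every chitooctaose array stood above every water array, and the gap between them was wider than the spread within any group. The gene lay above the floor on all 12 arrays, so each change was measured on both sides.

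**Figure D1:**
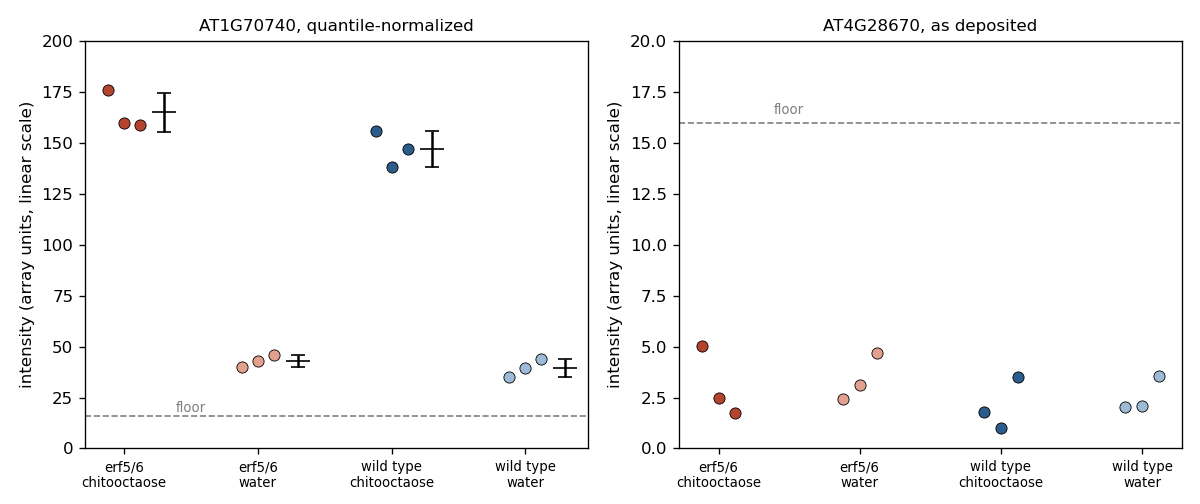
Intensity of the 2 listed CRK loci with a probe set on each array, on linear scales, with AT1G70740 quantile normalized and AT4G28670 as deposited. Points are arrays 1 to 3 of a group, black bars (AT1G70740 only) the mean and SD of the group, and the dashed line the floor of 16. AT1G70740 sits between 138 and 176 on the chitooctaose arrays and between 35.2 and 45.8 on the water arrays. AT4G28670 stays between 1 and 5.02, below the floor, on all 12 arrays.

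Group means of AT1G70740 were 165 ± 9.42 in chitooctaose-treated erf5/6 and 42.8 ± 2.98 in water-treated erf5/6 (SD, n = 3 each). They were 147 ± 9.13 in chitooctaose-treated wild type and 39.4 ± 4.26 in water-treated wild type (SD, n = 3 each). On the log2 scale the mutant response was 1.95 ± 0.10 (SE), a 3.86-fold change with a 95% interval of 3.33 to 4.46 (limma, adjusted p = 8.33e-08). The wild-type response was 1.91 ± 0.10 (SE), or 3.75-fold with an interval of 3.24 to 4.33 (limma, adjusted p = 9.85e-08). The average effect over both genotypes was 1.93 ± 0.07 (SE), or 3.80-fold (limma, adjusted p = 2.36e-09).

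These calls can be read against the arrays as a whole. Of all tested probe sets, 5.95% were called higher in the mutant response, 6.06% in the wild-type response and 7.51% for the average effect. The chitooctaose arrays lay wholly above the water arrays for 8.80% of probe sets in erf5/6 and for 9.12% in wild type. By size of change AT1G70740 ranked 310 of 18680 in erf5/6 and 308 of 18680 in wild type, with 1.65% and 1.64% of probe sets showing a larger rise. The median change of all tested probe sets was -0.08 in erf5/6 and -0.07 in wild type on the log2 scale. Of the 2 listed loci with a probe set, 1 was tested, and it was called higher in both responses.

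**Figure D2:**
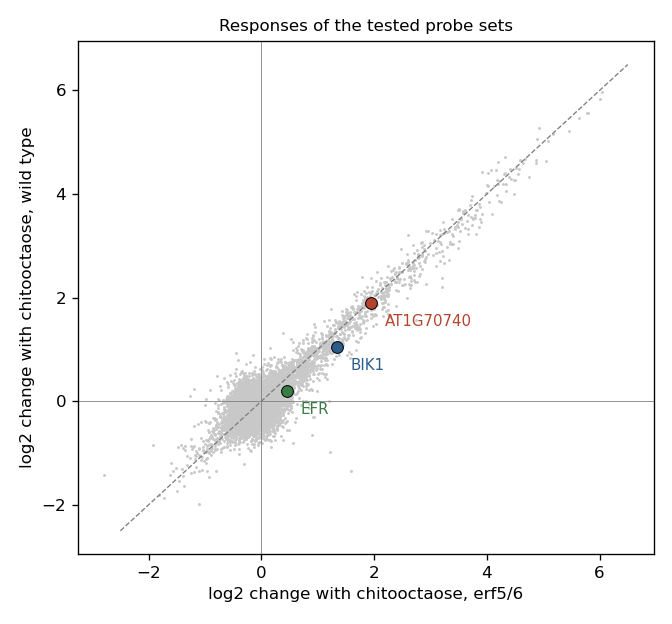
Each grey point is 1 of the 18680 tested probe sets, with its log2 change with chitooctaose in erf5/6 on the horizontal axis and in wild type on the vertical axis. The dashed line marks equal responses. AT1G70740 (1.95 and 1.91) lies next to that line, BIK1 at 1.35 and 1.05 and EFR at 0.46 and 0.21.

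Whether the erf5/6 mutation altered the level or the response of AT1G70740 was asked in 3 further comparisons, and none passed the test. In chitooctaose the mutant arrays (159 to 176) all lay above the wild-type arrays (138 to 156), a separation by a narrow gap that 4.90% of all tested probe sets showed in that direction. The difference was 0.17 ± 0.10 on the log2 scale (SE), with a 95% interval of -0.05 to 0.38 (limma, adjusted p = 0.801). In water the mutant arrays (39.8 to 45.8) overlapped the wild-type arrays (35.2 to 43.7), with a difference of 0.12 ± 0.10 (SE), an interval of -0.09 to 0.33 and adjusted p = 0.944 from limma. Over all tested probe sets limma called 0.0214% in chitooctaose and 0.0321% in water.

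The mutant response exceeded the wild-type response by 0.04 ± 0.13 on the log2 scale (SE), with a 95% interval of -0.26 to 0.34 (limma, adjusted p = 0.997, unadjusted p = 0.759). As a ratio of the responses this is 1.03, with an interval of 0.838 to 1.27. These arrays therefore leave room for a response in erf5/6 between 0.838 and 1.27 times as large as in wild type. They do not show that the responses are the same. Limma called 0 of 18680 probe sets for this difference (0%). Its sign turned when 1 of 4 arrays was left out: array 1 of chitooctaose-treated erf5/6 (-0.0043), array 1 of water-treated erf5/6 (-0.0083), array 2 of chitooctaose-treated wild type (-0.0027) or array 3 of water-treated wild type (-0.0351).

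**Figure D3:**
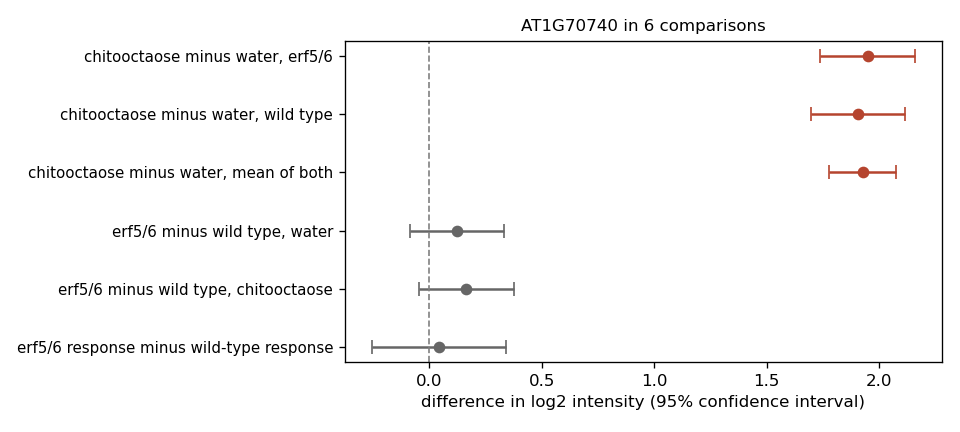
Differences in log2 intensity of AT1G70740 in the 6 comparisons, with 95% confidence intervals from limma. Red points passed the test and grey points did not. The 3 chitooctaose effects lie between 1.91 and 1.95, and the intervals of the other 3 include 0.

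The order of the 4 group means was chitooctaose-treated erf5/6, chitooctaose-treated wild type, water-treated erf5/6 and water-treated wild type. Between the middle pair the arrays were far apart (138 to 156 against 39.8 to 45.8). The neighbours at either end of the order did not differ beyond the test's threshold, as the genotype comparisons above give. The rise of AT1G70740 kept its call and its direction under every alternative run, between 1.40 and 2.03 in erf5/6 and between 1.33 and 1.99 in wild type on the log2 scale. With any 1 array left out it lay between 1.90 and 2.00 in erf5/6 and between 1.82 and 1.99 in wild type.

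The second locus, AT4G28670, gave no level above the floor in these seedlings. Its deposited intensities were 5.02, 2.46 and 1.76 in chitooctaose-treated erf5/6 and 2.43, 3.12 and 4.69 in water-treated erf5/6. They were 1.81, 1.00 and 3.49 in chitooctaose-treated wild type and 2.01, 2.08 and 3.57 in water-treated wild type. All 12 values lay below the floor, a chosen setting under which intensities were not compared. AT4G28670 was therefore left out of the tests and no change is given for it. A level below the floor bounds the signal of this probe set and does not show that the gene is silent.

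Genes of chitin perception were hardly covered. Of 11 such genes, 2 had a probe set in the gene table, BIK1 and AT5G18610, which encodes the cytoplasmic kinase PBL27 that is known to act below the chitin receptor CERK1. AT5G18610 was below the floor on all 12 arrays (3.11 to 11.9 as deposited), so the 1 tested gene of the 11 was BIK1, a receptor-associated cytoplasmic kinase that is known to phosphorylate RBOHD. BIK1 had 672, 557 and 611 in chitooctaose-treated erf5/6, against 257, 235 and 231 in water-treated erf5/6. In wild type BIK1 had 447, 634 and 508 with chitooctaose, against 268, 279 and 215 with water. The chitooctaose arrays lay above the water arrays in both genotypes. BIK1 rose 2.54-fold in erf5/6 (1.35 ± 0.14 on the log2 scale, SE; limma, adjusted p = 4.49e-05) and 2.08-fold in wild type (1.05 ± 0.14, SE; limma, adjusted p = 0.00035).

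Of 5 immune receptor and coreceptor genes, 1 had a probe set in the gene table, EFR. It encodes the receptor for the bacterial elongation factor Tu. EFR had 23.6, 16 and 28.1 in chitooctaose-treated erf5/6 and lay at the floor on all 3 water-treated erf5/6 arrays. The fitted difference, 0.46 on the log2 scale with floored values in both groups, did not pass (limma, adjusted p = 0.234; 0.0387 when chitooctaose array 2 of erf5/6 was left out). In wild type it was at the floor on 2 of the 3 chitooctaose arrays, with 24.7 on the third, against 16, 16.1 and 16 in water (0.21 on the log2 scale; limma, adjusted p = 0.598), and its change was -0.0031 when chitooctaose array 2 of wild type was left out. Of 10 genes outside the list found by a name for the same outer domain, such as plasmodesmata-located proteins, 0 had a probe set in the gene table. The same held for 45 lectin receptor kinase genes, another receptor family, so no family was set beside the CRKs.

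Tested genes around AT1G70740 on chromosome 1 were not called higher with it. Of the 10 protein-coding genes on each side, 8 had a probe set of 1 gene and 7 were tested, AT1G70650 being below the floor on all arrays. The changes of the 7 lay between -0.21 and 0.06 in erf5/6 and between -0.41 and 0.01 in wild type. The lowest was AT1G70790, with 58.3, 59.8 and 55.6 in chitooctaose-treated erf5/6 against 76.2, 68.4 and 58.1 in water-treated erf5/6 (-0.21; limma, adjusted p = 0.3).

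In wild type AT1G70790 had 64.3, 53.3 and 56.2 with chitooctaose against 82.4, 72.2 and 76.2 with water, and limma called it lower (-0.41, adjusted p = 0.0355). Lower calls made up 4.08% of all tested probe sets there. Leaving out any single water array of wild type ended the call (adjusted p of 0.128, 0.0554 and 0.0804 for arrays 1 to 3), as did leaving out chitooctaose array 2 (0.0915) or 3 (0.108) of wild type, or chitooctaose array 1 of erf5/6 (0.054). The adjusted p was 0.225 once the 2 wild-type arrays set apart on the second component were dropped, and 0.0711 in a fit of the wild-type arrays alone. For the average effect over both genotypes AT1G70790 was also called lower (-0.31; limma, adjusted p = 0.0172), with overlapping arrays. In that comparison 3166 of 18680 probe sets were called in either direction, 1402 of them higher and the rest lower. The alternatives were not run for AT1G70790 there. Of the tested genes nearest to AT1G70740 on either side, AT1G70720 was at the floor on 11 of 12 arrays and NdhL was above the floor on all 12.

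**Figure D4:**
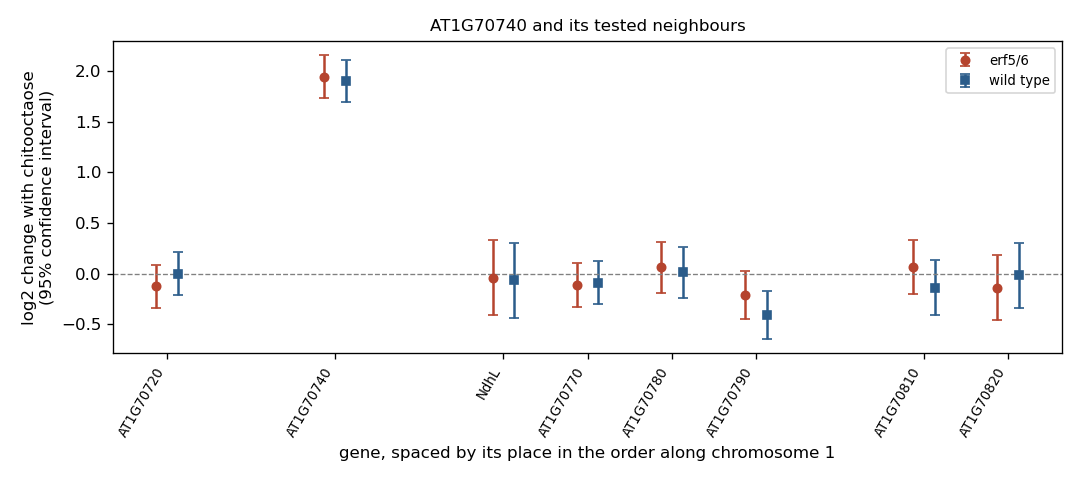
Log2 change with chitooctaose of AT1G70740 and the 7 tested genes among its 20 neighbours on chromosome 1, in gene order, with 95% confidence intervals from limma. Red circles are erf5/6 and blue squares wild type. AT1G70740 stands near 1.9 in both genotypes, and the 7 neighbours lie between -0.41 and 0.06.

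The pattern of AT1G70740 over the 12 arrays was shared by many probe sets, since it is mostly a step between water and chitooctaose. Pearson's r to AT1G70740 was over 0.95 for 604 of the other tested probe sets. The 5 named genes with the highest r, a ranking chosen after the values were seen, were WRKY22 (0.997), TET8 (0.996), AT1G67880 (0.995), AT2G25735 (0.995) and pEARLI4 (0.995). WRKY22 encodes a transcription factor of immune signalling and TET8 a tetraspanin, a membrane protein found on exosome-like vesicles. Their sizes of change differed: WRKY22 had 3.79 in erf5/6 and 3.53 in wild type, and AT2G25735 had 4.40 and 4.32. Close in size to AT1G70740 were TET8 (1.93 in erf5/6 and 2.04 in wild type), pEARLI4 (2.17 and 1.98) and AT1G67880 (1.84 and 1.97). The 12 arrays are the same for all of these genes, and r takes no account of the size of a step.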

How the data were processed

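RNA of whole seedlings was measured on 12 arrays, whose titles give the group and replicate number. The authors deposited probe set intensities on a linear scale; the summary of probes, background correction and scaling are not given in the sources used here. Per the labels' protocols, Trizol-extracted RNA was amplified from an oligo(dT) primer into biotin-labelled antisense RNA, which favours the 3' end of transcripts.

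Intensities were quantile normalized, floored at 16 and taken to log2. Probe sets above the floor on at least 1 array (18680 of 22746) entered a linear model of the 4 group means (limma 3.58.1, R 4.3.3; 12 arrays, 8 residual degrees of freedom), with empirical Bayes moderation and Benjamini-Hochberg adjustment over all tested probe sets in each of 6 comparisons. Calls were made at an adjusted p under 0.05, two-sided. A fold is 2 to the power of the log2 difference. The fit was tested on simulated data for the wild-type response, with changes added only to brighter probe sets. Dimmer ones, such as that of AT1G70740, were not covered by it. The number of arrays limits the precision: the half-width of a response's 95% interval was 0.275 in log2 units at the median.

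Genes came from the platform annotation, updated by gene identifier through a RefSeq table (TAIR10.1). It gave 1 gene for 13513 probe sets (13436 matched to RefSeq), several for 503 and none for 8730; no probe set with several genes held a listed locus. Sequences of members were not used here. RefSeq names stood in for descriptions in the search for relatives.

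The rule for members uses annotation alone, but the list of loci, the other gene lists and the tests were chosen with earlier results of these data known, and the neighbours and the ranking by correlation after the values were seen. The rule for named genes took every member with a probe set, the tested genes of each list, and full values for members called in either response. Alternatives covered normalization, floor, filter, prior, array weights, samples in the fit, the replicate number as a block and each array left out.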

Additional observations from a re-analysis of the deposited data

How the results depend on the processing

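The rise of AT1G70740 was called in each of the 23 alternatives for each genotype and in each of 22 for the average effect, where a fit of only the arrays compared is the same fit. Its smallest sizes were 1.40 in erf5/6, 1.33 in wild type and 1.36 for the average effect, all when 32 was added to each value instead of flooring. The genotype differences stayed positive and uncalled in all 23 alternatives each, from 0.04 to 0.20 in water and from 0.12 to 0.23 in chitooctaose. With the replicate number as a block, AT1G70740 had 1.95 in erf5/6 and 1.91 in wild type, still called, and the block changed no call of a member; over all probe sets 1517 were called in erf5/6 and 1823 in wild type with the block, against 1608 and 1894 without it. Pairing by number was not settled. Deviations from the group mean correlated above 0.1 in 6 of 18 same-numbered pairs, from -0.265 to 0.427 in all. Differently numbered pairs of arrays from different groups ran from -0.367 to 0.24, so some of these also lay above 0.1. The difference between the responses was uncalled in all 22 alternatives, and leaving out single arrays moved it between -0.0351 and 0.1215, negative in 4 cases; the cause was not tested. With the deposited values taken as they are it was 0.14, while the median of all tested probe sets moved to 0.10, so 0.04 lay above that shift. AT4G28670 was untested under each alternative except the one that kept floor-constant probe sets, where it has no variation.

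Among the other genes, BIK1 kept its call throughout. EFR was tested in only 21 of the 23 alternatives in each genotype. In erf5/6 it passed with the offset (adjusted p = 0.0376), with array weights (0.0365) and without array 2 of chitooctaose-treated erf5/6 (0.0387). In wild type EFR had 0.21, between -0.0031 and 0.3117 with 1 array left out, and -0.0042 once the 2 wild-type arrays set apart on the second component were dropped, a choice made after the data were seen. The wild-type fall of AT1G70790 missed the threshold with the offset (adjusted p = 0.0516), with floor-constant probe sets kept (0.0553) and with a robust intensity trend (0.0527). Intensities near the floor limit what can be said of dim probe sets.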
